A study of Mus musculus with 8 samples.

Results

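The transcripts described here are the uncharacterised transcripts at the start of mouse chromosome 14. They were taken as all array features, each a probe of 60 bases, that the scanner files place on the mm9 build of chromosome 14 with a first coordinate from 3076832 to 8330952. A feature also had to carry a predicted or cDNA-clone name (Gm, LOC, Rik, ENSMUST, TC or NAP) or no name beyond its probe identifier. There were 50 such features under 40 names, of 55681 non-control features on the array. The transcripts were thus chosen by measured values, since the interval was set from the R6/2 against control differences of these same samples, by transcripts that had large ones. The R6/2 minus control differences are therefore given as a description, with no test.

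The samples were medium spiny neurons, the projection neurons of the striatum, sorted from male mice at 4 weeks of age as cells positive for the Venus fluorescent protein and negative for propidium iodide. There were 4 samples in each group. The controls were WT;Scn4b-Venus mice and the others were R6/2;Scn4b-Venus mice, so both groups carried the reporter, which follows the sodium channel subunit gene Scn4b and marks the sorted cells. R6/2 mice are a model of Huntington's disease that carries a fragment of the human huntingtin gene with an expanded CAG repeat as a transgene, so the mutation does not sit in the mouse's own gene. RNA input was about 4 to 20 ng per sample, and the labels do not say whether each sample is 1 mouse or a pool.

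Proximal mouse chromosome 14 holds a large, recently duplicated gene family, alpha-takusan, part of whose sequence derives from Dlg5, a membrane-associated guanylate kinase (MAGUK) scaffold gene. Takusan proteins are known to bind the postsynaptic scaffold PSD-95 and to alter glutamate receptor levels at the neuronal surface. Copies of such a family are so alike that a short probe may bind RNA of several of them, so a signal here belongs to a sequence before it belongs to a gene. Of the 50 features, 26 matched a gene of the RefSeq table for GRCm38.p6 and for 24 the array's own name is used. The table lists takusan as a synonym of 1 of these genes, 2610042L04Rik. Probe sequences were therefore compared: 17 features shared a run of at least 20 identical bases with another feature of the interval, in 6 groups. The other 33 did not. A probe covers only part of a transcript, so the lack of a shared run does not place a gene outside the family. Exon, intron and untranslated region positions were not assigned, because no mm9 annotation was used here.

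The 6 groups of shared sequence are the ones by which the transcripts can be compared, and the probes of the 5 groups that span separate places on the chromosome are shown. Sequences are those of the array design in the scanner files, 5′ to 3′, with mm9 positions. Capitals mark the bases that lie in a run of at least 20 identical bases shared with another probe of the same group. Group 1 held Gm2897, the takusan gene 2610042L04Rik and 4930555G01Rik.
Gm2897 A_55_P1955442, chr14:3076832-3076891, plus strand: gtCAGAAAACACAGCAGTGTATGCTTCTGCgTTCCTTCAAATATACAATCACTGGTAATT
2610042L04Rik A_55_P2054004, chr14:4457639-4457698, plus strand: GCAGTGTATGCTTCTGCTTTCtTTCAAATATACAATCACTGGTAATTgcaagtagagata
4930555G01Rik A_55_P1958479, chr14:5162044-5162103, plus strand: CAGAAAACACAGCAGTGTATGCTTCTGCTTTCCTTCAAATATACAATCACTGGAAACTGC
4930555G01Rik A_55_P2129467, chr14:5162071-5162130, plus strand: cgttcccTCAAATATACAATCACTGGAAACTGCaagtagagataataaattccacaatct

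Group 2 held D830030K20Rik, Gm1973 (now Gm10413), Gm3264 and Gm8050, all listed by RefSeq as protein-coding.
D830030K20Rik A_55_P2104743, chr14:3227182-3227241, plus strand: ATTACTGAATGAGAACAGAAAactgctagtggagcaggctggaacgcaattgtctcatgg
Gm1973 A_55_P2070747, chr14:3503725-3503784, plus strand: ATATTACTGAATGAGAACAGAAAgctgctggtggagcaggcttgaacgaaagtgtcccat
Gm3264 A_55_P2078381, chr14:4976100-4976159, plus strand: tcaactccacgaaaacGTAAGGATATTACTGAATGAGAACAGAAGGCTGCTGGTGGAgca
Gm8050 A_55_P2104703, chr14:5269494-5269553, plus strand: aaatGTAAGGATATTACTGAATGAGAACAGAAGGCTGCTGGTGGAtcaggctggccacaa

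Group 3 held Gm3002, which RefSeq lists as a transcribed pseudogene, the coding gene Gm3696 and an Ensembl transcript of a predicted gene.
Gm3002 A_55_P2070748, chr14:3930499-3930558, plus strand: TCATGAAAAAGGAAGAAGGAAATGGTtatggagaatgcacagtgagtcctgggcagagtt
ENSMUST00000164544 A_55_P2177726, chr14:5363463-5363522, minus strand: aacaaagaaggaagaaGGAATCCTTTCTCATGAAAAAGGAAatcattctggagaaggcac
Gm3696 A_55_P2186230, chr14:7923212-7923271, minus strand: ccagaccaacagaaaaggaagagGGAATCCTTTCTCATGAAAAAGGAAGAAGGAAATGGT

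Group 4 joined 2 probes with little annotation, a hypothetical protein and an unnamed feature.
LOC100503728 A_55_P1993851, chr14:5665612-5665671, plus strand: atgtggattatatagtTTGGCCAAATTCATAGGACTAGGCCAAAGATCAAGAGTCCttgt
A_55_P2049261, chr14:8070308-8070367, minus strand: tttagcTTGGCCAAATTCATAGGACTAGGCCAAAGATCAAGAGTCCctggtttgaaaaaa

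Group 6 joined Gm3727 and Gm5797.
Gm3727 A_55_P2023449, chr14:8088634-8088693, minus strand: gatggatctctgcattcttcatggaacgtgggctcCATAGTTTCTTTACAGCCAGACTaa
Gm5797 A_55_P2060604, chr14:8156728-8156787, minus strand: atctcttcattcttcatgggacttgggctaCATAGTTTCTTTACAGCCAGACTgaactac

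Group 5 consisted of 2 overlapping probes for 1 place on the chromosome, A_55_P2053798 and NAP113134-1, with 48 bases in common. The 3 further probes, of D830030K20Rik, 1700110I01Rik and A_55_P1994294, each contained a tandem repeat of at least 20 bases and no run shared with another feature of the interval. The probe of 1700110I01Rik shared 20 or more bases with 51 other probes of the array. The remaining 30 features had neither a shared run nor a repeat.

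A feature was counted as measured where 4 or more of the 8 arrays had it well above background by the scanner software's call. By that rule 45 of the 50 features were measured, against 41385 of the 55681 on the array. Of the 45, 24 were above background on all 8 arrays and 13 on 7. Control replicate 1 was the array missed by each of those 13. It had the fewest features above background of any array, 50.1% of the whole array against 67.8 to 78.8% on the others, and 25 of the 50 transcripts against 38 to 42 in the other controls and 45 to 46 in the R6/2 samples. Of the 45, 3 were above background in all R6/2 samples and in no control, so they passed only through the group in which they were higher. The 5 features not measured were A_55_P2107681, A_55_P2107682, A_55_P1958329, A_55_P2154124 and 1 of the 4 probes of 4930555G01Rik.

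The sort was checked by marker genes. All 12 medium spiny neuron marker genes were above background on every array, and their summed level ran from 9.65 to 10.01 in the controls and from 9.19 to 9.43 in the R6/2 samples, on the log2 scale relative to the array's 75th percentile that is used throughout. Of 5 microglial markers, 3 were above background on every control array and 4 on every R6/2 array. Their summed level ran from 7.48 to 7.63 in controls and from 7.20 to 7.43 in R6/2 samples. Most of that sum was Itgam, with means of 7.29 in controls and 7.08 in R6/2 samples. The means were 4.46 and 4.62 for Csf1r, 1.23 and -0.33 for Aif1, -1.49 and -0.61 for Cx3cr1, and -4.30 and -3.97 for C1qa. The 5 oligodendrocyte markers summed to 2.57 to 5.34 in controls, where 3 were above background on every array, and to 2.55 to 3.70 in R6/2 samples, where all 5 were. The 5 astrocyte markers summed to -0.77 to -0.01 in controls and -0.42 to 0.21 in R6/2 samples. Among them Gja1, the astrocyte gap junction gene, was above background on 1 control array and no R6/2 array. The 4 endothelial markers summed to -0.54 to 0.45 and 0.02 to 0.41, and the 4 interneuron markers to -1.09 to 1.80 and -0.32 to 3.36, with Chat, the cholinergic marker, above background on no control array and 1 R6/2 array. Fewer cells of a type and less RNA per cell cannot be told apart in such samples, and the part of these levels in the differences below was not tested.

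Most of the measured transcripts were higher in the R6/2 samples than in the controls. The R6/2 minus control difference was positive for 41 of 45, and for 55.5% of all measured features. Its median was 0.74, against 0.05 over all measured features, and it ran from -0.33 to 3.19. The median was 0.33 with normexp background correction, which compresses dim signals, and 0.43 over the 24 features above background on all 8 arrays. The difference reached 1, a doubling of signal, for 21 of 45, against 4.53% of all measured features. For 14 of 45 every R6/2 sample was above every control sample, against 2.31% of all measured features, and for 0 of 45 every R6/2 sample was below, against 2.26%. With the dim features kept, 44 of the 50 had a positive difference. Among the 24 on all 8 arrays, 21 had one. These shares follow from how the interval was set and support nothing by themselves.

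**Figure D1:**
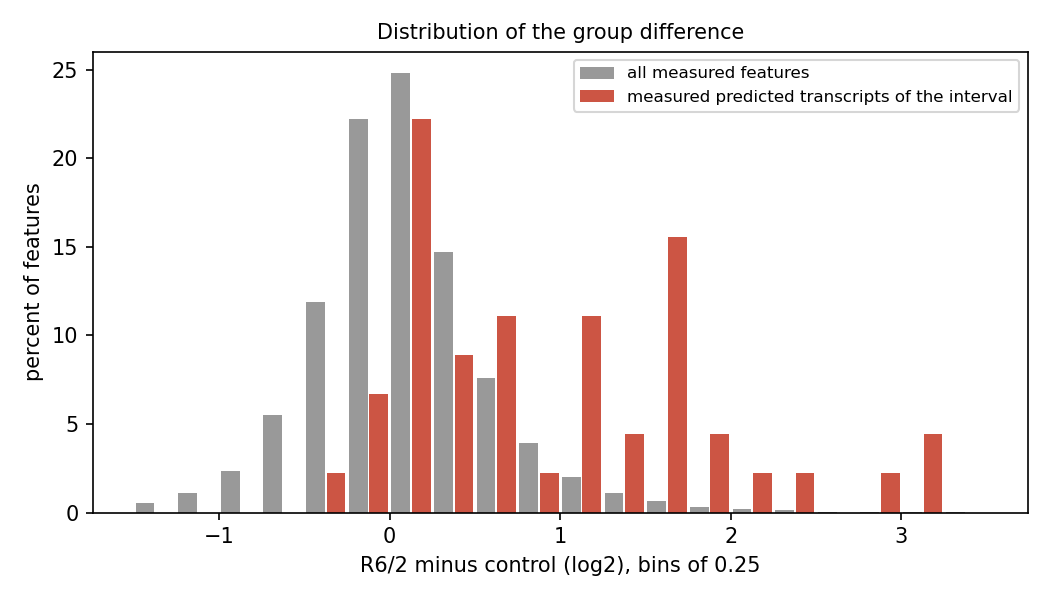
Percent of features (vertical axis) by R6/2 minus control difference in log2 (horizontal axis, bins of 0.25 from -1.5 to 3.5) for all 41385 measured features (grey) and the 45 measured transcripts of the interval (red). The grey bars centre near 0.05, while 21 of the 45 lie at 1 or above.

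The transcripts as a body differed between individual arrays too. The median level of the 45 was -1.84, -1.71, -1.99 and -2.43 in the controls, in the order of their replicate numbers, and -0.80, -1.56, -1.33 and -0.81 in the R6/2 samples. Values of single features are given below in the same order. The lowest R6/2 sample, replicate 2, stood just above the highest control, also replicate 2. The median difference was 0.63 without control replicate 1, the array with few features above background, and 0.68 without R6/2 replicate 4, the one sample on the other slide.

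A set of brighter transcripts carried the most even differences. ENSMUST00000165619, an Ensembl transcript of a predicted gene at chr14:4850203-4850262, read 1.20, 1.001, 1.18 and 0.88 in the controls and 2.68, 2.64, 2.72 and 3.005 in the R6/2 samples. The 2 groups lay far apart for their spread, with a difference of 1.69 ± 0.19 (SE, n = 4 and 4), or 3.24-fold. LOC545005, a hypothetical protein known from a cDNA clone, read 0.66, 0.61, 0.68 and 0.42 in controls and 2.09, 2.24, 2.27 and 2.59 in R6/2 samples. Its difference was 1.70 ± 0.19, also with no overlap. Gm10406, a protein-coding gene in RefSeq, read 1.53, 0.92, 1.68 and 1.22 in controls and 2.84, 2.81, 3.09 and 3.30 in R6/2 samples, a difference of 1.67 ± 0.24. These transcripts had the values that set the interval, so their size follows from the choice.

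Gm3727 and Gm5797, the pair of group 6, gave almost the same difference. Gm3727 read 0.38, 0.40, 0.54 and 0.08 in controls and 1.84, 1.75, 1.91 and 2.01 in R6/2 samples, a difference of 1.52 ± 0.19. The group 6 probe of Gm5797 read 0.12, -0.14, 0.03 and -0.39 in controls and 1.40, 1.04, 1.44 and 1.87 in R6/2 samples, a difference of 1.53 ± 0.24. The pair of probes aligned over 53 bases at 92.5% identity. A second probe of Gm5797, without a shared run, gave -1.94, -1.76, -1.88 and -2.35 in controls and -0.80, -0.95, -0.91 and -0.42 in R6/2 samples. Its difference was 1.21 ± 0.22, so both probes of this gene separated the groups. By position these probes overlap (chr14:8156685-8156744 and chr14:8156728-8156787), so they do not read separate parts of the gene.

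**Figure D2:**
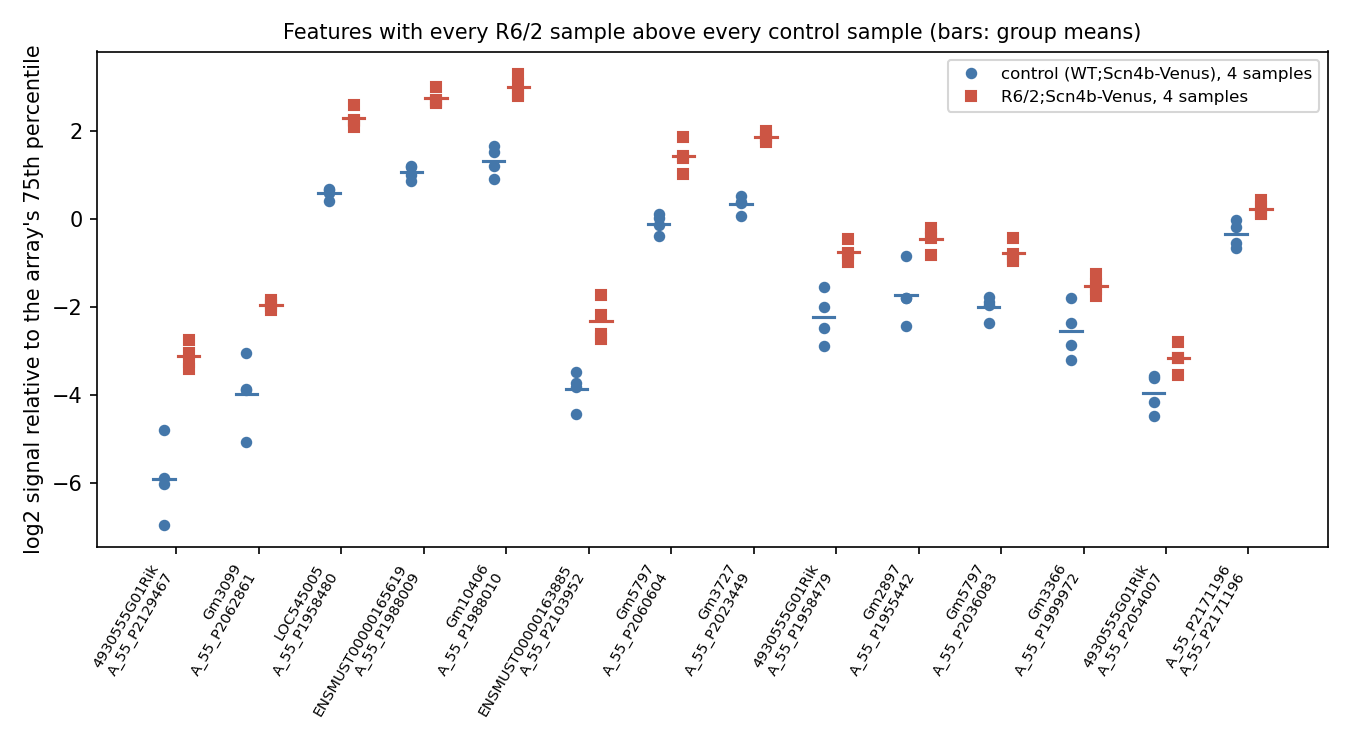
Log2 signal relative to the array's 75th percentile (vertical axis) in each of 4 control samples (blue circles) and 4 R6/2 samples (red squares), with group means as bars, for the 14 features in which the groups did not overlap, ordered by difference. ENSMUST00000165619, LOC545005, Gm3727 and Gm5797 show tight groups, while the 4930555G01Rik probe at the left had no control array above background.

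Group 1, with the takusan gene, was higher in R6/2 samples for each of its 4 probes. Gm2897 read -1.78, -0.84, -1.79 and -2.43 in controls and -0.42, -0.82, -0.20 and -0.35 in R6/2 samples, a difference of 1.26 ± 0.34 in which the lowest R6/2 sample stood just above the highest control. The takusan gene 2610042L04Rik read -3.33, -1.35, -2.35 and -3.15 in controls and -1.32, -1.73, -1.33 and -1.28 in R6/2 samples. Its difference was 1.13 ± 0.42, and control replicate 2 lay above R6/2 replicate 2, so the groups overlapped. For these 2 probes control replicate 2 was the highest control.

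4930555G01Rik is a protein-coding gene in RefSeq with 4 probes, and they did not give the same difference. The group 1 probe A_55_P1958479 read -2.87, -1.54, -1.98 and -2.46 in controls and -0.78, -0.96, -0.46 and -0.76 in R6/2 samples, a difference of 1.47 ± 0.31. The probe A_55_P2129467, which overlaps it on the downstream side, was above background on none of the controls and on all R6/2 arrays, where it read -3.04, -3.40, -2.73 and -3.25. By a bound on the background-subtracted signal, the R6/2 level was at least 2.39-fold higher. The bound took for each control array the lowest signal among features above background there, or the probe's own signal where that was higher. It does not hold under normexp background correction, where the log2 difference was 0.49. The probe A_55_P2054007 differed by 0.80 ± 0.28 with no overlap. The probe A_55_P2044541, further upstream, was above background on no array.

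Group 3 was higher in R6/2 samples for each of its 3 probes, but 2 of them were above background on at most 1 control array. Gm3696 was above background on no control array and on all R6/2 arrays, where it read -2.81, -2.26, -2.87 and -0.61. By the same bound on the background-subtracted signal it was at least 4.62-fold higher in R6/2. With normexp correction the log2 difference was 0.88, which is below that bound. The control readings of Gm3696, none of them called well above background, were -2.71, -5.84, -6.13 and -6.62. Control replicate 1 thus read above 2 of the R6/2 samples. ENSMUST00000164544 showed the same: 1 control array, replicate 1, measured it, at -1.78, and the other controls read -7.19 to -6.45. Its R6/2 values were -2.65, -2.35, -1.77 and -2.82, and its difference was 3.19 ± 1.10. Gm3002, with its probe A_55_P2070748, read -1.73, -2.96, -3.49 and -3.41 in controls and -1.25, -0.94, -1.86 and -0.43 in R6/2 samples, a difference of 1.78 ± 0.45. Control replicate 1 was again the highest control and lay above R6/2 replicate 3. Without control replicate 1 the difference was 2.16 for Gm3002, and no control array was left that measured the other probes of the group.

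Group 2 showed no such even difference. D830030K20Rik, with probe A_55_P2104743, read -2.19, -1.88, -2.09 and -2.19 in controls and -2.005, -2.16, -2.10 and -2.52 in R6/2 samples, a difference of -0.11 ± 0.20. Gm8050 read 0.76, 0.65, 0.87 and 0.53 in controls and 1.33, 0.78, 0.76 and -0.31 in R6/2 samples, a difference of -0.06 ± 0.34. The R6/2 samples enclosed the controls on both sides. Gm1973 read -1.84, -1.47, -1.34 and -1.59 in controls and -0.40, -1.59, -1.62 and -2.03 in R6/2 samples, and Gm3264 read -1.68, -1.80, -1.46 and -1.46 and then 0.33, -1.31, -1.20 and -2.17. In each of the 4 probes R6/2 replicate 1 was the highest R6/2 sample and R6/2 replicate 4 the lowest. The median deviation from the control mean over the 4 probes was 0.89 in R6/2 replicate 1, 0.02 in replicates 2 and 3 and -0.52 in replicate 4. In the controls it lay between -0.09 and 0.15.

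**Figure D3:**
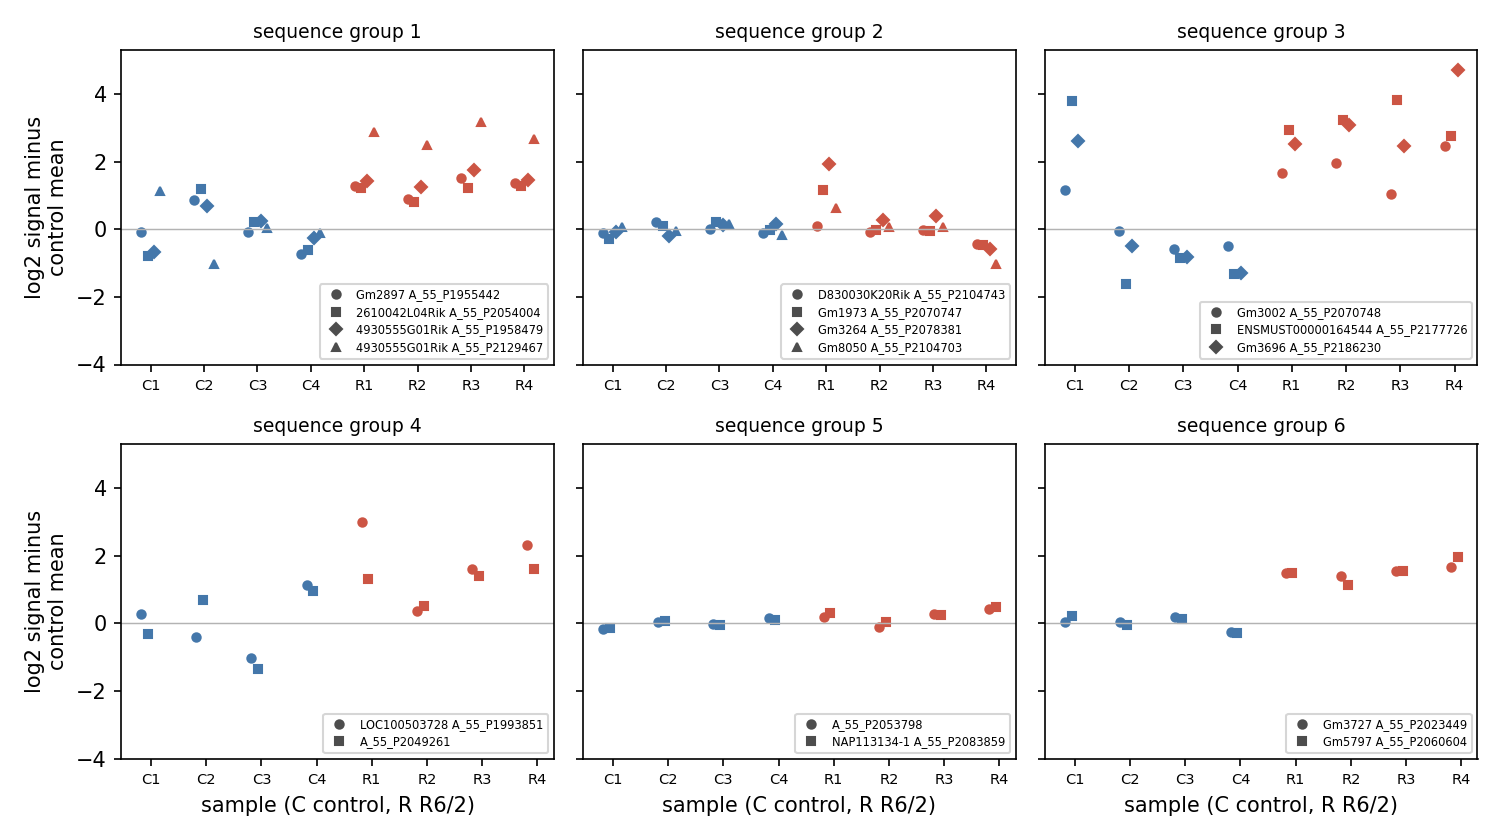
Log2 signal minus the probe's control mean (vertical axis) in control samples C1 to C4 (blue) and R6/2 samples R1 to R4 (red), 1 panel for each of the 6 groups of probes that share 20 or more identical bases, with 1 symbol per probe. Groups 1 and 6 are raised in all R6/2 samples, group 3 also in C1, group 2 is high in R1 and low in R4, and group 5 stays near 0.

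Groups 4 and 5 stood on either side of that contrast. LOC100503728, a hypothetical protein, read -2.84, -3.53, -4.17 and -1.99 in controls and -0.14, -2.78, -1.54 and -0.81 in R6/2 samples, a difference of 1.82 ± 0.64. Its partner A_55_P2049261, at the far end of the interval, differed by 1.21 ± 0.51. In both, R6/2 replicate 2 was the lowest R6/2 sample and lay within the range of the controls. The overlapping probes of group 5 differed by 0.19 ± 0.20 and 0.27 ± 0.18.

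The same gene or nearly the same sequence could thus fall on both sides. Gm1973 and Gm5797 offer the closest pair. The probe A_51_P379687 of Gm1973 and the probe A_55_P2036083 of Gm5797 overlap over 54 bases, of which 47 are identical, and capitals mark the 7 that differ and no others.
Gm1973 A_51_P379687, chr14:3509016-3509075, plus strand: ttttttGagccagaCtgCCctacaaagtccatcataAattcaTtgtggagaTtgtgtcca
Gm5797 A_55_P2036083, chr14:8156685-8156744, minus strand: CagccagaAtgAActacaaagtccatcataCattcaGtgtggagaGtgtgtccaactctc

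The Gm1973 probe read -3.43, -2.97, -2.94 and -2.82 in controls and -2.82, -3.37, -3.18 and -2.46 in R6/2 samples, a difference of 0.08 ± 0.26 against the 1.21 ± 0.22 of the Gm5797 probe. The windows around the annotated starts of these genes are more alike still. RefSeq promoter windows on GRCm38.p6, which run from 250 bases before to 50 after a gene's start, were found for 13 genes of the interval. The median identity over 90 pairs of windows was 45.2%, and 4 pairs reached 80%. Gm10413, the current name of Gm1973, and Gm5797 had the highest identity, 96.7% (10 edits in 300 bases), followed by Gm10413 and 4930555G01Rik with 83.7%. The pair is printed with the bases that differ in the alignment in capitals.
Gm10413, chr14:3394843-3395142, plus strand: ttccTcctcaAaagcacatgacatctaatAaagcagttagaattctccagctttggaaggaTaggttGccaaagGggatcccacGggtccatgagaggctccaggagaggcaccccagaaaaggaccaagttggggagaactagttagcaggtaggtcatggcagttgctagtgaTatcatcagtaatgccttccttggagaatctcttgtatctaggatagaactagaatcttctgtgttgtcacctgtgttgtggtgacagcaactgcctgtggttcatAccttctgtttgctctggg
Gm5797, chr14:7332346-7332645, minus strand: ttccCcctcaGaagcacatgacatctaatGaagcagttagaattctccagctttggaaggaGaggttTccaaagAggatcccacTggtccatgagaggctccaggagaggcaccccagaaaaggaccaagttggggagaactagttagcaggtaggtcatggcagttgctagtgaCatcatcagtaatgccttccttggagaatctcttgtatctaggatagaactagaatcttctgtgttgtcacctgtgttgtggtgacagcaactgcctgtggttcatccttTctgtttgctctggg

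The 25 measured transcripts with neither a shared run nor a repeat had differences from -0.33 to 2.36, with a median of 0.59, and 9 of them had no overlap between the groups. Gm3099, a predicted coding transcript, read -5.07, -3.89, -3.04 and -3.87 in controls, where 3 arrays were above background, and -1.82, -1.98, -2.06 and -1.90 in R6/2 samples. The R6/2 values were close together and all above the controls, with a difference of 2.02 ± 0.39. ENSMUST00000163885, an Ensembl transcript of a predicted gene, read -4.43, -3.47, -3.80 and -3.72 in controls and -2.61, -2.71, -2.16 and -1.71 in R6/2 samples, a difference of 1.56 ± 0.30. Gm3366 and the unnamed A_55_P2171196 also separated the groups, with differences of 1.04 ± 0.32 and 0.59 ± 0.22.

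Other transcripts without a shared run were less settled. TC1634910, an assembled transcript that the file compares with a rat protein, was above background on no control array and on all R6/2 arrays, where it read -4.28, -3.18, -4.10 and -3.66. By the same bound it was at least 1.47-fold higher in R6/2, but with normexp correction the log2 difference was only 0.29. Its reading of -3.94 in control replicate 1 lay within the R6/2 range, although it was not well above background there. The second probe of Gm3002 read -4.90, -1.71, -3.82 and -5.39 in controls and -0.79, -4.54, -2.51 and -1.16 in R6/2 samples. The groups overlapped widely, and the difference of 1.71 had an SE of 1.003. Another probe of D830030K20Rik, A_55_P2104716, differed by 1.08 ± 0.47, unlike the group 2 probe of that gene. It read -3.76, -1.40, -1.99 and -2.50 in controls and -1.54, -1.56, -1.28 and -0.96 in R6/2 samples. The groups overlapped, and control replicate 1 was the lowest control. NAP113268-1, on 1 control and 3 R6/2 arrays, differed by 0.55 ± 0.41.

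Of the 45, 4 had a negative difference. Beside the group 2 probes of D830030K20Rik and Gm8050 these were the repeat probe of D830030K20Rik, at -0.04 ± 0.20, and Gm3187. Gm3187 read -2.85, -2.48, -2.59 and -2.68 in controls and -2.64, -2.85, -2.996 and -3.42 in R6/2 samples, a difference of -0.33 ± 0.22 with overlap.

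The dim features depended more on how background was handled than the bright ones. With normexp background correction the difference was 0.49 for the 4930555G01Rik probe A_55_P2129467, 0.88 for Gm3696, 0.62 for ENSMUST00000164544, 0.29 for TC1634910, 0.75 for Gm3099 and 0.53 for ENSMUST00000163885. For Gm3002 it was 0.99 and 0.68, for LOC100503728 0.95 and for the 4930555G01Rik probe A_55_P1958479 it was 0.95. Under the same correction ENSMUST00000165619, LOC545005, Gm10406, Gm3727 and the group 6 probe of Gm5797 differed by 1.62, 1.64, 1.59, 1.39 and 1.38. Each of these differences kept its sign, while that of NAP113268-1 went to -0.02.

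The brightest of the transcripts were close to even between the groups. The probes with a tandem repeat, of 1700110I01Rik (a long non-coding RNA in RefSeq), A_55_P1994294 and D830030K20Rik, differed by 0.04 ± 0.18, 0.02 ± 0.19 and -0.04 ± 0.20. LOC100036572 read 4.17, 3.53, 4.06 and 3.54 in controls and 4.75, 3.98, 3.82 and 4.14 in R6/2 samples, a difference of 0.35 ± 0.28. A_55_P2040044 differed by 0.14 ± 0.25. For each of these 5 the groups overlapped. The 56 other probes of the array that shared 20 or more bases with the interval's repeat probes, or aligned with them, and were themselves repeats had a median difference of -0.01.

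By RefSeq class, 18 measured features of 12 coding genes had a median difference of 1.10. The 3 measured features of 2 transcribed pseudogenes had 1.71, and the 4 of 2 long non-coding RNA genes had 0.18. The 20 measured features that matched no RefSeq gene had 0.57. By strand, the median was 0.80 over 23 measured plus-strand features and 0.66 over 22 minus-strand ones.

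The transcripts spanned 5.25 Mb. In 4 stretches of equal length from the start of the interval, the median difference was 0.28 (14 measured), 1.47 (11), 0.27 (7) and 1.21 (13). The highest in each was 2.02, 3.19, 1.56 and 3.19, so differences above 1 occurred in all 4. At the near edge Gm2897 was the first feature, and the nearest probe before it, A_55_P1959863 at a distance of 72.4 kb, was above background on 1 array. At the far edge ENSMUST00000167475, the last feature, differed by 0.18 ± 0.32. The next probes were 2 coordinate-named ones, above background on 2 and 1 arrays, and the first measured one beyond them differed by -0.05 ± 0.22. On the count of arrays, the features just inside were the 4 measured on 4 arrays (NAP113268-1, TC1634910, Gm3696 and the 4930555G01Rik probe A_55_P2129467). None was on 3, and the nearest outside was A_55_P2107682 on 2, with a difference of -0.07.

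**Figure D4:**
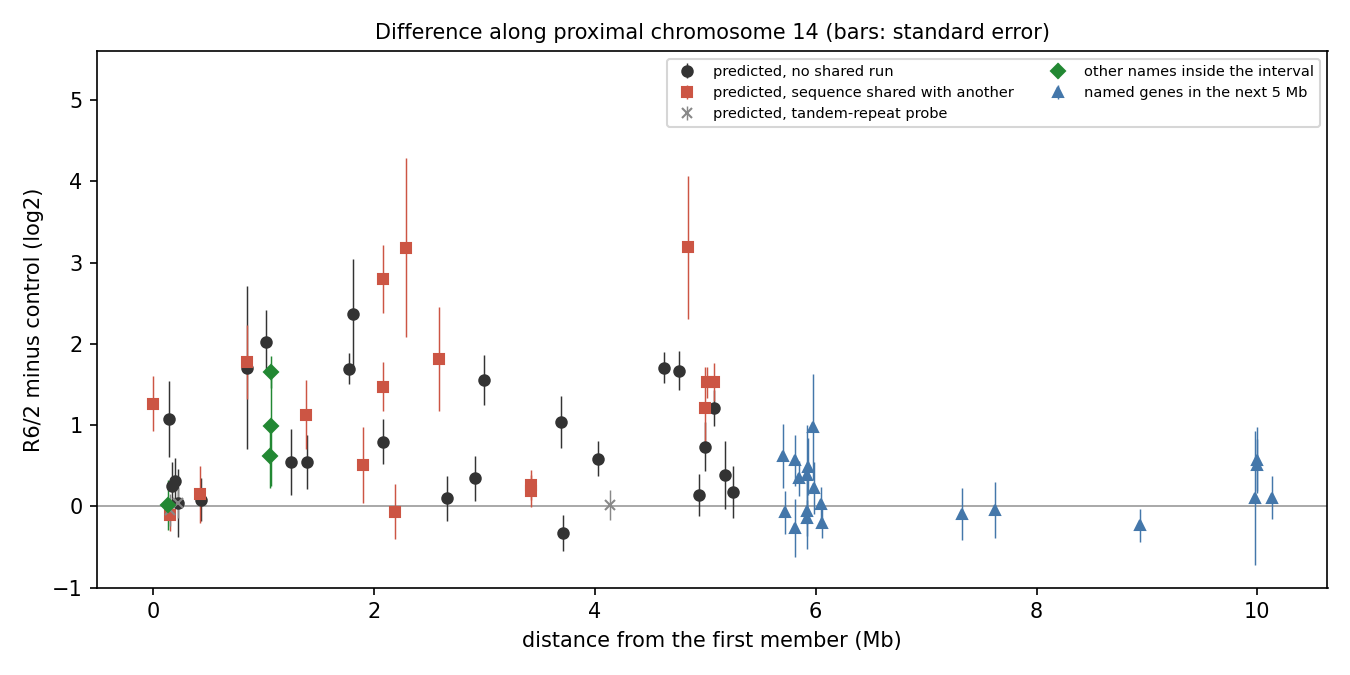
R6/2 minus control difference in log2 with its standard error (vertical axis) against distance in Mb from the first feature of the interval (horizontal axis), for measured transcripts by probe sequence class, the other names inside the interval and named genes in the next 5 Mb. Differences above 1 lie among values near 0 within the interval, and the named genes beyond it lie between -0.27 and 0.98.

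Tests across the array were made with limma, in which 0.00242% of the 41385 measured features (1 feature) passed an adjusted p of 0.05 and 2905 had an unadjusted p under 0.05. In the interval 4 features carried other names, 1 for the esterase gene Esd and 3 for ENSMUSG00000068790. Esd differed by 0.02 ± 0.31 (adjusted p = 0.993, limma). ENSMUSG00000068790 repeated the split seen within the transcripts. Its probe A_55_P2030282, at chr14:4144179-4144238, read 0.12, -0.20, -0.19 and -0.13 in controls and 1.42, 1.43, 1.51 and 1.85 in R6/2 samples. That difference of 1.65 ± 0.19 was among those that set the interval and is given as a description. Its probe A_55_P2030275, at chr14:4139620-4139679, matched the group 2 probe of Gm3264 over 48 bases at 100% identity. It read -0.96, -0.88, -0.53 and -0.51 in controls and 1.02, -0.32, -0.15 and -0.95 in R6/2 samples, with replicate 1 highest and replicate 4 lowest as in group 2. The third probe differed by 0.98 ± 0.73. By limma's test the adjusted p was 0.787 for A_55_P2030275 and 0.812 for the third probe.

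Probes elsewhere on the chromosome with sequence like that of the interval were few once repeats were set aside. Gm5458, at chr14:20413566-20413625, shared bases with the interval and aligned with Gm1973 over 38 bases at 92.1% identity. It read -1.54, -1.69, -1.18 and -1.73 in controls and -0.12, -0.31, -0.16 and 0.39 in R6/2 samples, with no overlap and a difference of 1.48 ± 0.23 (adjusted p = 0.2998, limma). Its second probe differed by 0.55 ± 0.22, also with no overlap (adjusted p = 0.691). Gm8104, at chr14:43793420-43793479, aligned with ENSMUST00000165619 over 37 bases at 89.2% and differed by 0.97 ± 0.70 (adjusted p = 0.805). Ighmbp2 on chromosome 19, which aligned with LOC100036572, differed by 0.25 ± 0.27 (adjusted p = 0.882). These probes were looked for after the differences were known, and their signal may include RNA of the interval's transcripts. The other 399 measured predicted transcripts of chromosome 14, outside the interval, had a median difference of 0.08. Every R6/2 sample was above every control for 7 of them, or 1.75%, against 2.31% of all measured features.

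Features with gene names that the scanner files place in the next 5 Mb were close to the rest of the array. The 20 measured features of 15 genes had a median difference of 0.10, 12 of them positive. Called by limma at an adjusted p of 0.05 were 0, with 0 at an unadjusted p under 0.05, and 0 had groups apart. The smallest p-values belonged to 1 probe each of Abhd6, a monoacylglycerol lipase, and Ptprg, a receptor tyrosine phosphatase. Their differences were 0.57 ± 0.31 (adjusted p = 0.758, limma) and 0.51 ± 0.32 (adjusted p = 0.785). A second probe of Abhd6 went the other way, at -0.27 ± 0.36, and the other probes of Ptprg differed by 0.10 and 0.57. Rpp14 differed by 0.34 ± 0.22 and Kctd6 by 0.98 ± 0.65, at adjusted p = 0.787 and 0.794.

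Dlg5, the scaffold gene to which takusan sequence is related, lies further along chromosome 14 at chr14:24953194-24953253. It read 1.60, 2.19, 1.70 and 1.70 in controls and 2.04, 2.39, 1.64 and 1.38 in R6/2 samples. The difference was 0.06 ± 0.27 (adjusted p = 0.975, limma), and the groups overlapped. Over 41 measured features of 26 MAGUK and MAGUK-related genes the median difference was -0.04, with 17 positive and 24 negative. At an adjusted p of 0.05 limma called 0 of them. An unadjusted p under 0.05 was found for 3 of the 41, against 2905 of the 41385 measured features of the array. These 3 were Cacnb2, a calcium channel beta subunit, with -0.63 ± 0.23 (adjusted p = 0.664), the scaffold gene Magi3, with 1.26 ± 0.53 (adjusted p = 0.704), and Magi1, with 0.65 ± 0.28 (adjusted p = 0.705). Magi1 had every R6/2 sample above every control with that probe, and Cacnb2 every R6/2 sample below. Each was 1 of the 41 features, against 2.31% and 2.26% of all measured features. Other probes of Magi3 and Magi1 did not all differ in the same direction.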

How the data were processed

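RNA was labelled with Cy3 and hybridised to 1-colour Agilent arrays, 1 array per sample (4 control, 4 R6/2). Per the file headers, the scanner files came from Feature Extraction 10.7.3.1, with probe positions on mm9, and hold each spot's background-subtracted intensity. The authors' deposited series table holds log2 values of the same arrays that differ from the log2 values computed here by a constant per array, and it served as an alternative. Its other processing is not given in the sources used here.

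From the deposited intensity, outlier spots and control spots were left out, log2 signals were averaged per probe, and each array's 75th percentile was subtracted. One unreadable line of R6/2 replicate 3 was left out. Precision is limited by the 4 arrays per group, and where nothing says that samples came from separate mice the p-values measure only the spread between samples. Differences, standard errors and Benjamini-Hochberg adjusted p-values came from limma 3.58.1 (R 4.3.3), fitted on all 41385 probes above background on at least 4 of 8 arrays. The fit was tested on simulated data. Probe sequences were compared by runs of 20 identical bases and by blastn 2.17.0 (at least 35 bases at 85% identity), the latter added after the data were seen. Promoter windows were aligned with edlib (version 1.3.9.post1). The sources of sequence are the scanner files and the RefSeq table of promoters on GRCm38.p6.

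The members and lists were chosen with earlier results of these data known. Transcripts named are the 15 with the largest difference, those with a negative one, the 5 brightest and those at the limit of 4 arrays. Those in a sequence group, with groups that do not overlap or close in sequence were named after their values were seen. Of the other lists, up to 5 features with the smallest p are named, and of the MAGUK list Dlg5 and up to 4. One of the features that this rule names is not reported here. Marker lists cover medium spiny neurons, astrocytes, oligodendrocytes, microglia, endothelial cells and interneurons. Coordinate-named probes were not counted as genes. Same-numbered samples showed correlations of their deviations of -0.04 to 0.02, so the numbers were not taken to pair samples. R6/2 replicate 4 was the only array on its slide, so the slide as a block is the same as leaving that array out.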

Additional observations from a re-analysis of the deposited data

Results flagged for a closer look

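A set of 3 values stood apart from the other 3 samples of their group, by a rule on the gap to the nearest sample that chance meets about 1 time in 20. They came from 80 groups of values looked at. ENSMUST00000164544 read -1.78 in control replicate 1, against -7.19 to -6.45 in the other controls. A_55_P1994294, a probe with a tandem repeat, read 7.94 in control replicate 2, against 8.20 to 8.22. Dlg5 read 2.19 in control replicate 2, against 1.60 to 1.70.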

How the results depend on the processing

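The median difference of the transcripts was 0.74 and kept its sign under all 16 alternatives, of which the replicate block cannot change a difference. It was 0.33 with normexp background correction, and 0.63 to 0.90 with 1 sample left out. With only features above background on all 8 arrays, 21 members with a positive difference remained to be counted and 9 without overlap between groups, because 24 were tested. Leaving out 1 sample gave 37 to 42 positive differences and 14 to 19 without overlap. Groups that do not overlap stay apart when a sample is dropped, so the latter count could not fall below 14 and says nothing on stability. Over the whole array the 1 call became 8 with normexp, 2 with quantile normalization and 7 with the all-array filter, and 0 to 3 with 1 sample left out (3 without control replicate 1, 0 without any other). Of the 4 features with other names in the interval, 1 was called with normexp and 1 with the all-array filter. In each case it was a feature of ENSMUSG00000068790, which helped to set the interval. Leaving out 1 sample called 0 of them, 0 of the genes in the next 5 Mb and 0 of the MAGUK list. With the replicate block, the pairing that the numbers do not bear out, 0 features of the array were called. Sharing a run of 30 identical bases in place of 20 left 6 features in place of 17. The cause of these changes was not tested. Of the 20 named transcripts with a positive difference, 16 kept that sign under every alternative that could be run for them, and of the 4 with a negative one, 2 did. The bounds for dim features depend on the lowest signal above background on each array. They apply to the background-subtracted signal only, and the normexp differences of the same features were smaller.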
